A study of Mus musculus with 8 samples.

Results

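ATP-binding cassette (ABC) transporters were followed in the livers of 4 wild-type (WT) mice and 4 mice lacking SIRT7, a histone deacetylase (SIRT7 KO). The family was taken as every gene whose symbol begins with Abc, a letter from a to g and a number, and whose probe sets on the array are annotated to that gene alone. The rule found 36 of the 12393 genes named on the array, with 65 of the 22626 probe sets tested. RefSeq lists 14 further protein-coding genes with such symbols, for which the rule found no probe set, so the family is not complete here. Each of the 36 genes was represented by its brightest probe set, meaning the one with the highest mean over all 8 arrays, and 15 of them had further probe sets. Of these genes, 8 encode exporters of the bile canaliculus and are set beside the other 28.

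Every array held total RNA from the liver of 1 mouse, labelled with biotin and hybridised to an Affymetrix GeneChip mouse expression array. The genotype is the only difference between the groups that the labels give, and neither a drug nor a special diet is named for these samples. The sources used here do not state each animal's age or sex, or how the gene was disrupted. Values are log2 expression, so that a difference of 1 is a 2-fold change, and levels of different probe sets cannot be compared with each other. Because whole liver was used, fewer cells of a type and less RNA per cell cannot be told apart.

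ABC transporters bind and hydrolyse ATP to move lipids, bile acids, conjugated drugs, peptides or metals across a membrane. In the hepatocyte, a set of them sits in the canalicular membrane and secretes the components of bile, while others return conjugates to the blood across the basolateral membrane. Further members load cholesterol onto lipoproteins, import very long chain fatty acids into peroxisomes or act in the inner mitochondrial membrane. The ABCE and ABCF proteins carry the ATP-binding domains without a membrane domain and act on ribosomes and translation.

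Several checks of the arrays bear on these genes. Sirt7 lay between 8.57 and 8.98 on the WT arrays and between 4.40 and 4.90 on the SIRT7 KO arrays. The array medians ran from 6.30 to 6.36. The mean of 45 probe sets for spiked control RNAs ran from 8.63 to 8.76 in WT and from 8.39 to 8.61 in SIRT7 KO, a difference of -0.16, and its part in the results was not tested. The 5 measured hepatocyte markers had a mean level of 14.74 to 14.81 in WT and 14.70 to 14.75 in SIRT7 KO. The difference was -0.060 (exact permutation p = 0.0571), and its part in the results was not tested. All 5 measured cholangiocyte markers lay below the median of all probe sets (6.35). At a false discovery rate of 0.15, 4.65% of all genes passed. Among markers of other cells, Stab1 and Lyve1 passed of 7 endothelial genes, in opposite directions. Dcn rose of 7 stellate cell genes and Cd3g fell of 5 T and NK cell genes. Of these 5, 4 lay below the median of all probe sets, Cd3g among them. The mean level of the stellate cell markers was 7.47 to 8.04 in WT and 7.92 to 8.26 in SIRT7 KO. The difference was 0.25 (exact permutation p = 0.114). The mean level of 4 neutrophil markers was 5.23 to 9.91 in WT and 5.17 to 9.22 in SIRT7 KO. That difference was -1.06 (exact permutation p = 0.514).

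Of the 36 ABC transporter genes, 1 rose and 2 fell in SIRT7 KO livers at a false discovery rate of 0.15, the rate that the study's methods set. Abcb4, the canalicular exporter of phosphatidylcholine, rose 1.53-fold. Abcb10, a transporter of the inner mitochondrial membrane, fell 1.31-fold, and Abca8a, an ABCA lipid transporter, fell 1.61-fold. These 3 genes are 8.33% of the family, whereas 4.65% of all 12393 genes passed, with 2.17% higher and 2.48% lower. The difference between these shares rests on 3 genes and was not tested. At the stricter rate of 0.05, Abcb4 alone passed in the main fit, against 0.758% of all genes. Which genes passed at this rate depended on the setting, as given in the last section.

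In 3 of the 36 genes, or 8.33%, the SIRT7 KO and WT arrays did not overlap, compared with 9.8% of all genes, and these were again Abcb4, Abcb10 and Abca8a. An unadjusted p under 0.05 was found for 5 members, or 13.9%, compared with 15.6% of all genes. Besides the 3 genes named, these were the canalicular exporter Abcg2 and Abcd4. Of the 65 probe sets, 4 passed (6.15%), of which 2 belong to Abcb10, whereas 4.31% of all probe sets passed. The differences of 18 genes were above 0 and those of 18 below 0, and the median was 0.0022, against -0.0031 over all genes. In mean level, 10 members lay below the median brightness of the array, namely Abca4, Abca7, Abcb1a, Abcb1b, Abcb9, Abcc1, Abcc8, Abcc9, Abcc10 and Abcg3, where a background signal can hide a change.

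**Figure D1:**
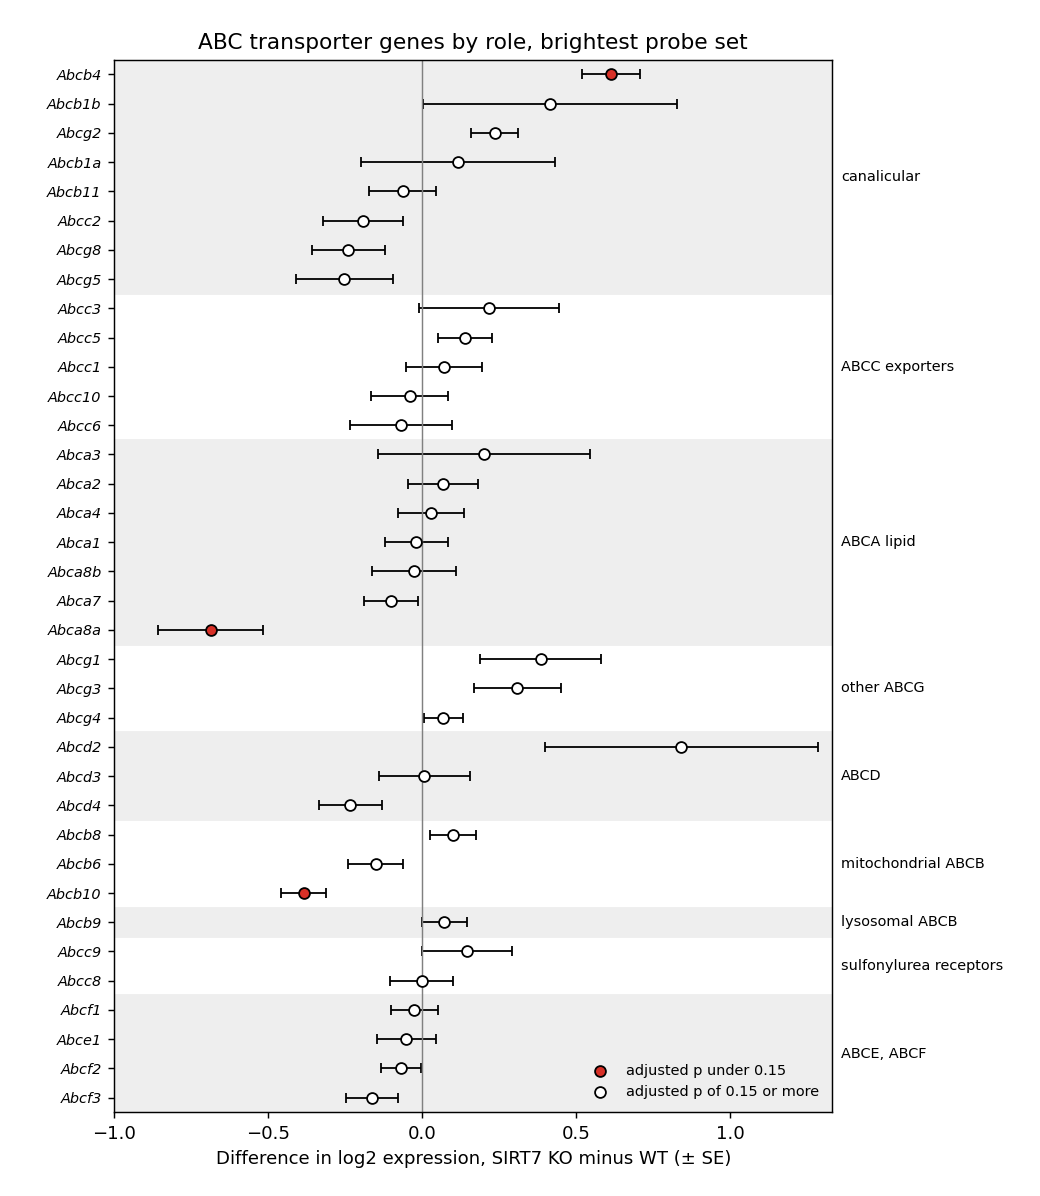
SIRT7 KO minus WT level on the log2 scale (horizontal axis) for the 36 ABC transporter genes (vertical axis), grouped by role, with lines of ± SE over 4 arrays per genotype. Filled points passed an adjusted p under 0.15: Abcb4 lies at 0.61, Abcb10 at -0.39 and Abca8a at -0.69, while the farthest open point, that of Abcd2 at 0.84, has a wide error.

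Among the canalicular exporters, Abcb4 rose and the other 7 did not pass. Abcb4 encodes MDR2, a floppase that delivers phosphatidylcholine to bile, where it shields the duct lining from bile acids. The Abcb4 levels were 11.07, 11.11, 11.14 and 11.21 on the WT arrays and 12.00, 11.76, 11.59 and 11.62 on the SIRT7 KO arrays. Each SIRT7 KO array lay above each WT array, and the WT arrays were close to each other (SD 0.059, n = 4, against 0.18 in SIRT7 KO, n = 4). The difference was 0.61 ± 0.094 (SE, limma adjusted p = 0.0391), and its p ranked 56th of 22626 probe sets. In the 8 fits without a single array the difference stayed between 0.53 and 0.66, and the call held each time (largest adjusted p = 0.113). The gene has a single probe set on the array, and whether its probes also bind RNA of the related Abcb1a and Abcb1b was not tested.

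The promoter windows of Abcb4 and Abcb11 are shown because the first gene rose while the second, the main bile acid exporter, did not pass. Each is the 250 bases before the start site in RefSeq (GRCm38.p6), read along the gene's own strand, at chr5:8893471-8893720 on the plus strand for Abcb4 and chr2:69342617-69342866 on the minus strand for Abcb11. Capitals mark matches, on either strand, to any of 6 motifs: the E-box CACGTG, the cyclic AMP response element TGACGTCA, the AP-1 site TGACTCA, the nuclear receptor hexamer AGGTCA, the TATA box TATAAA and the GC box GGGCGG.
Abcb4: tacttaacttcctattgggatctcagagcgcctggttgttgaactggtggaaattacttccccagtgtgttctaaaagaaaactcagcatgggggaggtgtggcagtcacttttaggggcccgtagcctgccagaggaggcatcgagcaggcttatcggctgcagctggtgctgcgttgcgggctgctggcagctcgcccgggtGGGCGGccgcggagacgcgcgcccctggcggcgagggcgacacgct
Abcb11: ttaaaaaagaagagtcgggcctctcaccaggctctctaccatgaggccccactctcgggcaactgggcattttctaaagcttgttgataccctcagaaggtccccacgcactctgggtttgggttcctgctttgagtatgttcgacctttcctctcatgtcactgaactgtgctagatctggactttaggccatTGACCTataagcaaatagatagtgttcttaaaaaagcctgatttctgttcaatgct
The Abcb4 window held 1 GC box, at position -46 from the start site, and 61.6% G and C. The Abcb11 window held 1 hexamer, read on the opposite strand at position -56, and 46.4% G and C. A GC box was found in 32.7% and the hexamer in 14.0% of the 32851 windows of all genes, so that neither match is rare.

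Abcb11, the bile salt export pump, had levels of 12.50, 12.29, 12.57 and 12.19 in WT and 12.23, 12.39, 12.50 and 12.15 in SIRT7 KO. Both groups covered the same range, and the difference was -0.065 with a 95% interval from -0.31 to 0.18 (adjusted p = 0.844). The interval does not reach the change of Abcb4. Abcc2, which exports bilirubin glucuronides and glutathione conjugates, had levels of 11.19, 11.17, 10.61 and 11.11 in WT and 10.91, 10.71, 10.92 and 10.77 in SIRT7 KO. Its WT array 3 stood below the other arrays of both genotypes. The difference of -0.19 ± 0.13 (SE, adjusted p = 0.553) was -0.33 without WT array 3 and then passed (adjusted p = 0.13).

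Abcg2, the breast cancer resistance protein that exports urate, porphyrins and drugs, had levels of 11.33, 11.17, 11.16 and 11.06 in WT and 11.41, 11.32, 11.44 and 11.50 in SIRT7 KO. Only WT array 1 reached the range of the SIRT7 KO arrays. The difference was 0.24 ± 0.077 (SE, adjusted p = 0.194), which did not pass over all probe sets but did when only those above the median brightness were tested (adjusted p = 0.127).

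Abcg5 and Abcg8 form one heterodimer that secretes cholesterol and plant sterols into bile, and the genes lie head to head on chromosome 17. Abcg5 had levels of 10.13, 10.30, 9.77 and 10.22 in WT and 10.13, 10.06, 9.62 and 9.60 in SIRT7 KO, a difference of -0.25 ± 0.16 (SE, adjusted p = 0.514). Abcg8 had levels of 8.80, 8.99, 8.59 and 9.0 in WT and 8.84, 8.58, 8.58 and 8.42 in SIRT7 KO, a difference of -0.24 ± 0.12 (SE, adjusted p = 0.386). In both genes WT array 3 was the lowest of its group and SIRT7 KO array 4 the lowest of all, and the groups overlapped.

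Abcb1a and Abcb1b encode the drug exporter P-glycoprotein and lie in a cluster with Abcb4 on chromosome 5. Abcb1a had levels of 5.68, 6.09, 6.14 and 5.74 in WT and 6.84, 6.40, 5.20 and 5.66 in SIRT7 KO, so that its SIRT7 KO arrays lay on both sides of the WT arrays. The difference was 0.11 (95% interval from -0.59 to 0.82, adjusted p = 0.907), and it was negative without SIRT7 KO array 1 (-0.16) or 2 (-0.0105). Abcb1b had levels of 6.48, 6.13, 4.47 and 6.25 in WT and 6.34, 6.04, 5.80 and 6.81 in SIRT7 KO. Its difference of 0.41 (95% interval from -0.51 to 1.34, adjusted p = 0.707) came with WT array 3 at 4.47, and without that array it was -0.041. Neither gene reached the brightness of the array median in its mean, so these arrays say little about them.

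**Figure D2:**
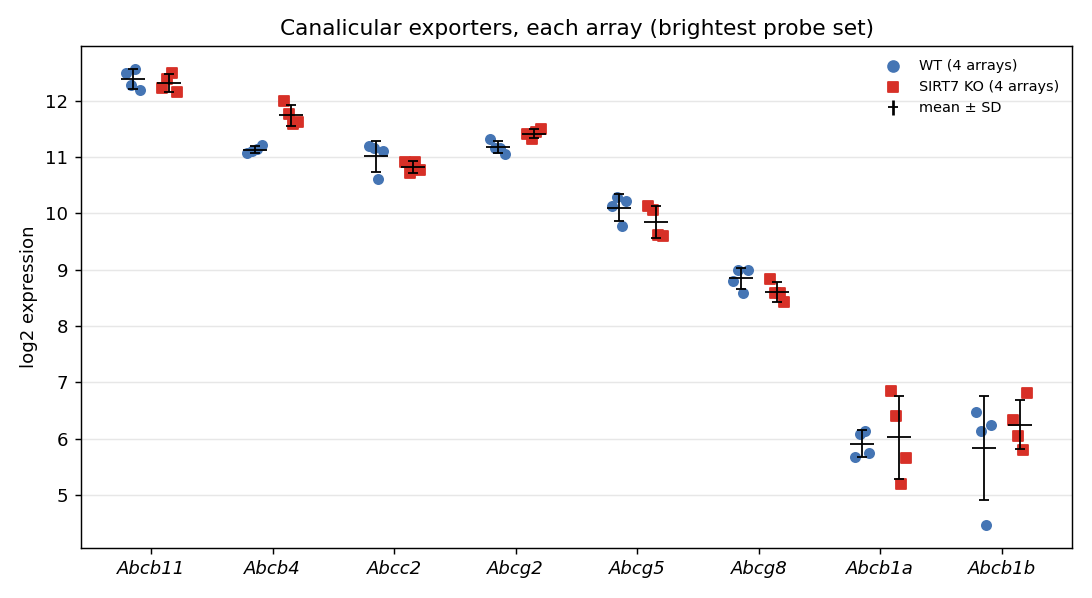
Log2 expression (vertical axis) of the 8 canalicular exporters (horizontal axis) on each WT array (circles) and SIRT7 KO array (squares), with black lines for mean ± SD, n = 4. The squares of Abcb4 all lie above its circles (at least 11.59 against at most 11.21), those of Abcg2 nearly so, and the groups of the other 6 genes overlap.

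As a class, the canalicular exporters did not shift one way. Their median difference was 0.025, with 4 genes above 0 and 4 below, and that of the other 28 genes was 0.0022, with 14 above 0 and 14 below. The median of the canalicular genes lay between -0.096 and 0.099 in the fits without a single array, and it was -0.13 over the 6 of them that lay above the median brightness. The size of the differences, with sign set aside, had a median of 0.24 in the canalicular genes, 0.086 in the others and 0.096 over all genes. Of the 8, 1 passed (12.5%, against 4.65% of all genes). An unadjusted p under 0.05 was found for 2 of the 8, Abcb4 and Abcg2, against 15.6% of all genes. Both comparisons rest on 8 genes and were not tested. The share of all genes with a lower residual SD was 98.8% for Abcb1b, 97.6% for Abcb1a, 88.4% for Abcg5 and 81.0% for Abcc2. It was 74.4% for Abcg8, 68.2% for Abcb11, 51.9% for Abcb4 and 23.6% for Abcg2. The part of this spread in the medians was not tested.

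Set beside each other, the change of Abcb4 was 0.68 above that of Abcb11, 0.80 above that of Abcc2, 0.87 above that of Abcg5 and 0.85 above that of Abcg8. It was 0.38 above that of Abcg2, 0.50 above that of Abcb1a and 0.20 above that of Abcb1b. Abcb4 was picked for its rise, so these distances are a description, and no test is given for them.

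The basolateral multidrug resistance proteins and related ABCC exporters had 5 measured members. By limma 0 of these passed, and 0 had an unadjusted p under 0.05, against 4.65% and 15.6% of all genes. Their differences ran from -0.069 in Abcc6 to 0.22 in Abcc3. Abcc3, which exports glucuronides across the basolateral membrane, had levels of 10.78, 10.52, 10.17 and 9.73 in WT and 10.91, 10.60, 10.22 and 10.32 in SIRT7 KO, and the groups overlapped (adjusted p = 0.725). Abcc5 had 7 probe sets, of which 6 had a positive difference, and the brightest gave 0.14 ± 0.089 (SE, adjusted p = 0.533). The sulfonylurea receptors Abcc8 and Abcc9, which regulate potassium channels, were below the median brightness and differed by -0.0023 and 0.14.

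Among 7 measured ABCA genes, which export or flip lipids, Abca8a alone fell. Abca8a had levels of 11.45, 10.88, 10.89 and 11.13 on the WT arrays and 10.43, 10.47, 10.71 and 9.99 on the SIRT7 KO arrays. The groups did not overlap, but the nearest arrays, SIRT7 KO array 3 and WT array 2, were 10.71 and 10.88. The difference was -0.69 ± 0.17 (SE, adjusted p = 0.107). Of the 8 fits that each left out 1 array, 3 kept the call, those lacking WT array 2, WT array 3 or SIRT7 KO array 3. Over all 8 the difference ran from -0.79 to -0.55 and the largest adjusted p was 0.227. With the replicate number as a block the call was also lost (adjusted p = 0.169). Its neighbour Abca8b, a close relative on the same stretch of chromosome 11, lay at 8.17, 8.28, 8.44 and 7.74 in WT and 8.20, 8.08, 8.23 and 8.01 in SIRT7 KO (difference -0.028, adjusted p = 0.951). The change of Abca8a minus that of Abca8b was -0.66, which is given without a test because the pair was chosen after its values were seen, and whether probes of one bind RNA of the other was not tested.

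The window before the start site of Abca8a (GRCm38.p6, chr11:110095938-110096187, minus strand) is shown as that of a gene that fell, with the same marks.
Abca8a: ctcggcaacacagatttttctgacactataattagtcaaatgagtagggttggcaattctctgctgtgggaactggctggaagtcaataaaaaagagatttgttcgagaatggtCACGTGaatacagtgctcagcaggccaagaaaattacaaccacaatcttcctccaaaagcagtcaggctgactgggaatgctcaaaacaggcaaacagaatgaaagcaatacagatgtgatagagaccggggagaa
It held 1 E-box, the sequence that Myc and its partners bind among other factors, at position -136, and 43.2% G and C. The E-box was present in 6.02% of all windows and in 3 of the 27 members with a window, the others being Abca1 and Abcf1. The first is a share of windows and the second a count of genes, some with more than 1 window, so they are not alike.

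Abca1, which loads cholesterol and phospholipid onto apolipoprotein A-I to form HDL, did not pass. Its levels were 11.90, 12.03, 12.10 and 11.95 in WT and 11.76, 11.86, 12.07 and 12.21 in SIRT7 KO, where the arrays lay on both sides of the WT arrays. The difference was -0.020 with a 95% interval from -0.25 to 0.21 (adjusted p = 0.955), and it took both signs in fits without a single array (-0.097 to 0.052). All 3 probe sets of Abca1 had a difference below 0, and none of them passed. The remaining ABCA genes Abca2, Abca3, Abca4 and Abca7 differed by -0.10 to 0.20.

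The other ABCG genes, Abcg1, Abcg3 and Abcg4, had differences of 0.38, 0.31 and 0.068. Of these 0 passed and 0 had an unadjusted p under 0.05, against 4.65% and 15.6% of all genes. Abcg1, which exports cholesterol to HDL, mostly from macrophages, had levels of 6.85, 7.52, 7.09 and 6.81 in WT and 7.40, 7.19, 7.27 and 7.94 in SIRT7 KO, and the groups overlapped (adjusted p = 0.411). The mean level of 7 macrophage markers ran from 8.78 to 9.73 in WT and from 8.96 to 9.89 in SIRT7 KO, a difference of 0.24 (exact permutation p = 0.457), of which 0 passed alone by limma. Its part in the value of Abcg1 was not tested.

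The ABCD genes carry fatty acyl chains into peroxisomes or, in the case of Abcd4, cobalamin out of lysosomes. Of 3 measured ABCD genes, 0 passed, against 4.65% of all genes. Abcd4 had an unadjusted p under 0.05 (33.3% of them, against 15.6% of all genes). Abcd3, the peroxisomal membrane protein PMP70, had levels of 13.18, 12.93, 13.27 and 12.85 in WT and 13.14, 13.42, 12.81 and 12.89 in SIRT7 KO. The difference was 0.0068 with a 95% interval from -0.32 to 0.34 (adjusted p = 0.99). Abcd4 differed by -0.23 ± 0.10 (SE, adjusted p = 0.326). Abcd2 had the largest difference of the family, 0.84 ± 0.44 (SE, adjusted p = 0.43), with levels of 6.49, 6.94, 6.99 and 5.06 in WT and 7.99, 7.44, 6.61 and 6.81 in SIRT7 KO. Its groups overlapped, and WT array 4 lay far below the rest.

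In the mitochondrial membrane, Abcb10 fell, while Abcb6 and Abcb8 did not pass. Abcb10 is needed for haem synthesis in erythroid cells, and in hepatocytes it has been linked to the export of biliverdin. Its brightest probe set had levels of 9.58, 9.44, 9.40 and 9.31 in WT and 9.05, 9.11, 9.01 and 9.03 in SIRT7 KO. Each SIRT7 KO array lay below each WT array, within a spread of only 0.042 (SD, n = 4). The difference was -0.39 ± 0.073 (SE, adjusted p = 0.055) and held whichever single array was left out (largest adjusted p = 0.149).

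A second probe set of Abcb10 gave the same picture, with levels of 8.47, 8.14, 8.17 and 8.08 in WT and 7.82, 7.81, 7.66 and 7.72 in SIRT7 KO. It fell by 0.47 ± 0.095 (SE, adjusted p = 0.0657) and was lost only without SIRT7 KO array 4 (adjusted p = 0.166). The remaining probe set lay between 4.64 and 5.02 on all arrays, near the lower quartile of all values (4.55), and differed by 0.094 (adjusted p = 0.698). The mean of all 3 probe sets of Abcb10 fell by 0.25 (adjusted p = 0.112). The levels of 4 measured erythroid markers had a mean between 5.60 and 5.97 in WT and between 5.57 and 5.90 in SIRT7 KO, a difference of -0.12 (exact permutation p = 0.343), and 3 of them, Hba-a1, Epb42 and Slc4a1, lay below the median brightness. Their part in the fall of Abcb10 was not tested.

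The window before the Abcb10 start site (GRCm38.p6, chr8:123983123-123983372, minus strand) is the last of the 3 for genes past the threshold.
Abcb10: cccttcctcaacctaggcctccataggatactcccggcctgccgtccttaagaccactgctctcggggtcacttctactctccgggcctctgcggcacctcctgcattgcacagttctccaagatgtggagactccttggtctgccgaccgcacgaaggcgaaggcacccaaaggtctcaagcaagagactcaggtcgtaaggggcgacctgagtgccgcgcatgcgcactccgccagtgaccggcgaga
It held 61.6% G and C and no match to any of the 6 motifs, so that it has no capitals, and the windows of the 3 genes past the threshold shared none of these motifs.

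Abcb6, which has been placed in the outer mitochondrial membrane as a porphyrin transporter, differed by -0.15 ± 0.089 (SE, adjusted p = 0.479), and Abcb8, of the inner membrane, by 0.10 ± 0.074 (SE, adjusted p = 0.591). The change of Abcb10 minus that of Abcb8 was -0.49 and minus that of Abcb6 -0.23, again as a description. The lysosomal peptide transporter Abcb9 differed by 0.071 (adjusted p = 0.715) at a level below the median brightness.

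**Figure D3:**
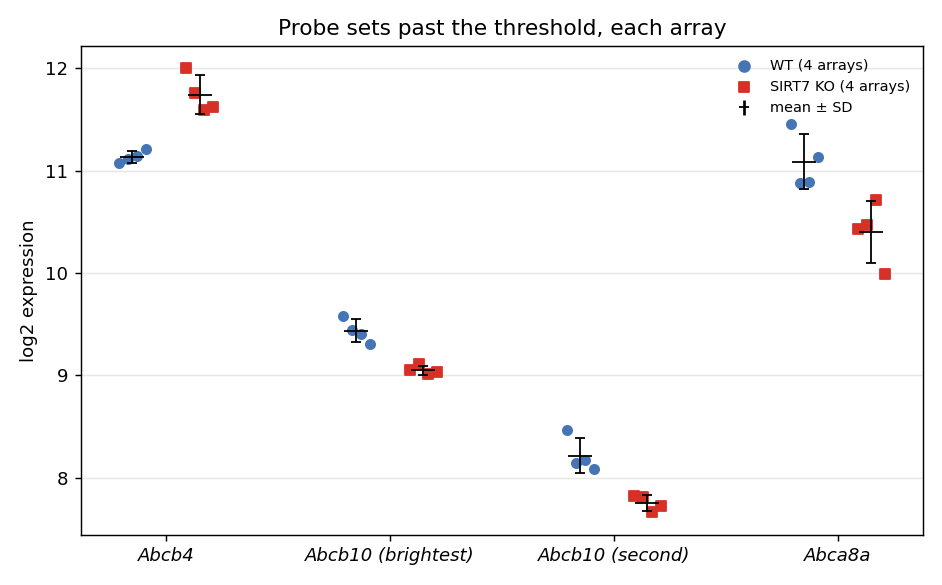
Log2 expression (vertical axis) on each WT array (circles) and SIRT7 KO array (squares) for the 4 probe sets past the threshold (horizontal axis), with black lines for mean ± SD, n = 4. In each, the squares lie apart from the circles, above them in Abcb4 and below them in both probe sets of Abcb10 and in Abca8a, where the gap is the smallest, from 10.71 to 10.88.

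The ABCE and ABCF genes, whose products recycle ribosomes or act in translation, all had small differences. Abce1, Abcf1, Abcf2 and Abcf3 had differences of -0.052, -0.026, -0.069 and -0.16. All were below 0, as were those of 6283 of all 12393 genes. By limma 0 passed and 0 had an unadjusted p under 0.05, against 4.65% and 15.6% of all genes. So few genes cannot show whether the group departs from these shares. The 95% interval that reached lowest was that of Abcf3, from -0.35 to 0.024 (adjusted p = 0.409). Of 6 probe sets for Abcf1, 5 had a difference below 0.

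Probe sets of one gene did not always agree in sign. Of 15 genes with several probe sets, 8 had differences of 1 sign and 7 had both, namely Abcb8, Abcb10, Abcc1, Abcc5, Abcf1, Abcf2 and Abcg4. Apart from Abcb10, none of these 15 genes had a probe set past the threshold.

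Variation between mice of one genotype was wide in a few members. The residual SD was 0.78 in Abcd2, 0.72 in Abcb1b, 0.60 in Abca3, 0.55 in Abcb1a and 0.39 in Abcc3, and 99.0%, 98.8%, 98.2%, 97.6% and 94.9% of all genes, in this order, had a lower one. Abca3, a phospholipid transporter best known from lung surfactant, had levels of 10.32, 9.30, 9.39 and 8.73 in WT and 10.03, 10.16, 9.18 and 9.16 in SIRT7 KO. A second probe set of Abca3 followed with 7.91, 6.76, 7.08 and 6.35 in WT and 7.60, 7.70, 6.67 and 6.68 in SIRT7 KO, so that WT array 1 was the highest and WT array 4 the lowest in both. The second probe set of Abcb1a likewise had its highest values on SIRT7 KO arrays 1 and 2 (5.07 and 4.90) and its lowest on SIRT7 KO arrays 3 and 4 (3.86 and 4.04). That probe set is dim: it lay below the median brightness, and its WT levels of 4.22 to 4.34 were under the lower quartile of all values (4.55). In Abca3, Abcb1a, Abcc3 and Abcd2, SIRT7 KO arrays 1 and 2 lay above SIRT7 KO arrays 3 and 4, whereas Abcb1b was highest on SIRT7 KO array 4. What sets these pairs of arrays apart was not tested.

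**Figure D4:**
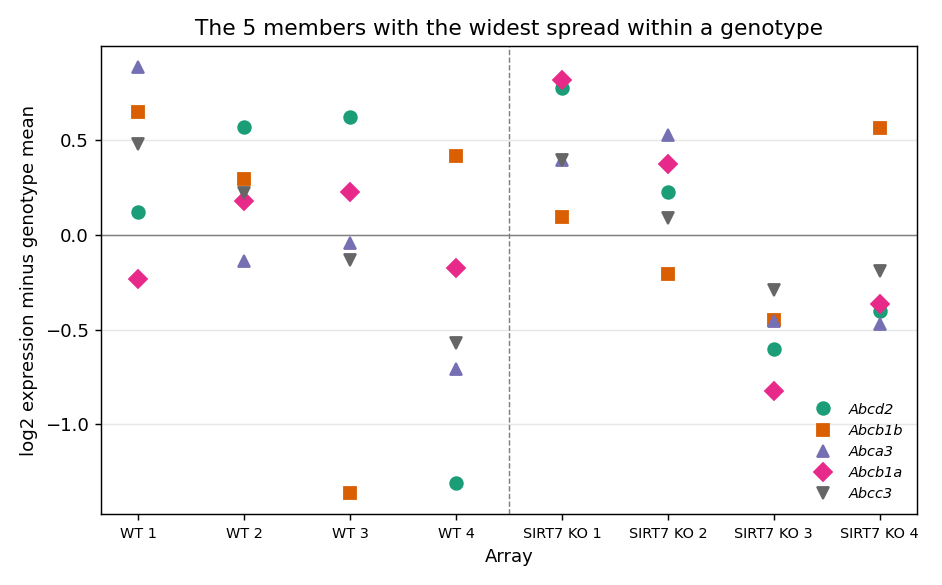
Log2 expression minus the mean of the genotype (vertical axis) on each of the 8 arrays (horizontal axis) for the 5 members with the largest residual SD, from 0.39 in Abcc3 to 0.78 in Abcd2. On SIRT7 KO arrays 1 and 2 the points of Abca3, Abcb1a, Abcc3 and Abcd2 lie above 0 and on SIRT7 KO arrays 3 and 4 below 0, while Abcb1b lies far below 0 on WT array 3, where its level was 4.47.

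Partners of the canalicular exporters in bile formation were measured for 21 genes, from uptake carriers to enzymes of bile acid synthesis, of which 0 rose and 1 fell. This is 4.76% of them, close to the 4.65% of all genes that passed, and their median difference was -0.066, against -0.0031 over all genes. An unadjusted p under 0.05 was found for 4 of them (19.0%, against 15.6% of all genes). Slc9a3r1, which encodes the scaffold NHERF1 that tethers membrane transporters, fell by 0.44 ± 0.089 (SE, adjusted p = 0.0656), and this call was lost only without WT array 1 (adjusted p = 0.179). The bile acid uptake carrier Slc10a1 (-0.082, adjusted p = 0.747) and the rate-limiting enzyme of bile acid synthesis Cyp7a1 (-0.11, adjusted p = 0.959) did not pass.

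Among 18 regulators of transporter genes, 0 rose and 1 fell (5.56%, against 4.65% of all genes). A difference below 0 was found for 13 of the 18 (median -0.12), compared with 6283 of all 12393 genes. An unadjusted p under 0.05 was found for 4 of the 18 (22.2%, against 15.6% of all genes). Nr1i3, the nuclear receptor CAR, which drives drug-metabolising enzymes and exporters, differed by -0.52 ± 0.15 (SE, adjusted p = 0.142), and of the fits that left out 1 array only that lacking WT array 3 kept the call (largest adjusted p = 0.301). The bile acid receptor FXR, encoded by Nr1h4, differed by -0.0071 (adjusted p = 0.981). Of 8 genes outside the family that the oxysterol receptor LXR drives, limma called 0, against 4.65% of all genes. Only Lpl had an unadjusted p under 0.05, which is 12.5% of them, against 15.6% of all genes. A difference above 0 was found for 7 of the 8 (median 0.28), compared with 6110 of all 12393 genes. These shares rest on few genes and were not tested. The family's own LXR targets differed by -0.020 (Abca1), 0.38 (Abcg1), -0.25 (Abcg5) and -0.24 (Abcg8).

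Of 18 peroxisomal partners of the ABCD transporters, 1 rose and 1 fell (11.1%, against 4.65% of all genes). A difference above 0 was found for 16 of the 18 (median 0.081), compared with 6110 of all 12393 genes. An unadjusted p under 0.05 was found for 3 of the 18 (16.7%, against 15.6% of all genes). These shares rest on few genes and were not tested. Pex11a, a gene of peroxisome division, rose by 0.73 ± 0.20 (SE, adjusted p = 0.139), and of the fits that left out 1 array only that lacking SIRT7 KO array 3 kept the call (largest adjusted p = 0.284). Pecr, a peroxisomal enoyl-CoA reductase, fell by 0.34 ± 0.066 (SE, adjusted p = 0.0614), and the call was lost when WT array 1 or SIRT7 KO array 4 was left out (largest adjusted p = 0.175). Among 16 mitochondrial genes of iron, haem and iron-sulfur metabolism, 0 rose and Fech fell (6.25%, against 4.65% of all genes). An unadjusted p under 0.05 was found for 3 of the 16 (18.8%, against 15.6% of all genes). Fech, the ferrochelatase that inserts iron into haem and has been found in a complex with the ABCB10 protein, fell by 0.31 ± 0.072 (SE, adjusted p = 0.098), and of the fits that left out 1 array, those lacking WT array 2, WT array 4 or SIRT7 KO array 1 kept the call (largest adjusted p = 0.23).

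The ABC proteins whose symbols do not follow the family name were Tap1, Tap2 and Cftr. Of these limma called 0, against 4.65% of all genes. Tap1, a subunit of the antigen peptide transporter, had an unadjusted p under 0.05 (33.3% of them, against 15.6% of all genes). It differed by 0.42 ± 0.13 (SE, adjusted p = 0.163). Its partner Tap2 differed by 0.037 (adjusted p = 0.91), and the chloride channel Cftr lay at 3.55 in WT and 3.53 in SIRT7 KO, below the lower quartile of all values.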

How the data were processed

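The authors deposited log2 expression values, already corrected for background, normalized across the arrays and combined over the probes of a set. The methods of the study name RMA and the processing notes name GCRMA for this step, and which of them was used is not settled. Of 22690 probe sets, 64 control probe sets were left out, and 22626 were tested with limma (version 3.58.1 in R 4.3.3, lmFit and eBayes, two-sided, genotype as the only term) with Benjamini-Hochberg adjustment over all of them. Probe sets were named from GEO's platform annotation, and all 36 members matched RefSeq (GRCm38.p6) by Entrez ID with the same symbol.

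Mean levels of marker genes were compared by exact two-sided permutation tests, where the smallest possible p, with 4 mice per genotype, was 0.0286. The fit was tested on simulated data. The number of arrays limits the precision. Each limma p-value sets a difference against the spread between these mice, moderated over all probe sets. Full values are given for the canalicular exporters, members past the threshold or without overlap, and the 5 members with the highest signal (Abcd3, Abcb11, Abca1, Abcb4 and Abcg2), a choice by signal that ranks no gene's abundance. Outside this rule, and after their values were seen, array values were added for Abca3, Abca8b, Abcc3, Abcd2 and Abcg1, and Slc10a1, Cyp7a1, Nr1h4, Lpl, Tap1, Tap2 and Cftr were named from the lists. Members, role groups and lists were chosen with earlier results of these data known. Alternatives were a stricter threshold, trended variance, array weights, quantile normalization, brighter or unsuffixed probe sets, gene means, the replicate number as a block and the omission of each array. RefSeq windows were held for 27 members.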

Additional observations from a re-analysis of the deposited data

Results flagged for a closer look

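In 4 of 72 groups of arrays (36 genes in each genotype) a single array stood apart from the other 3, with a gap to its nearest neighbour above Dixon's critical value for 4 samples, which chance passes in about 1 in 20 groups. Abcc2 was 10.61 on WT array 3, with the other WT arrays between 11.11 and 11.19. Abcc1 was 5.26 on WT array 4, with the others between 5.71 and 5.77. Abcg4 was 6.87 on WT array 4, with the others between 6.73 and 6.74. Abca4 was 5.10 on SIRT7 KO array 3, with the others between 4.77 and 4.79.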

How the results depend on the processing

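Abcb4 and Abcb10 passed at 0.15 under each alternative run. Abca8a also passed with trended variance, array weights, quantile normalization and other choices of probe sets, but not with the replicate block (adjusted p = 0.169) or in 5 of 8 fits without a single array. At a threshold of 0.05, 1 gene and 1 probe set of the family passed in the main fit. Abcb10 was also under 0.05 with trended variance (adjusted p = 0.0483), array weights (0.0371) and brighter probe sets (0.0386). Abcb4 was above 0.05 with the replicate block (0.0973). Without a single array, the adjusted p of Abcb4 ran from 0.0488 to 0.113. At 0.15 the replicate block gave 2 genes and 3 probe sets. The numbers share no stated origin, and same-numbered arrays had deviations from their group means that correlated at 0.255, -0.252, -0.163 and 0.145, so they were not treated as pairs. Without a single array, 2 to 5 probe sets passed. Differences that had not passed changed sign: that of Abcd3 was -0.0096 with array weights and -0.11 to 0.092 without a single array, and those of Abca1, Abcb1a and Abcb1b ran from -0.097 to 0.052, from -0.16 to 0.39 and from -0.041 to 0.63. The mean over its probe sets gave -0.25 for Abcb10. With only probe sets above the median brightness, Abcg2 passed as well, which made 4 genes. The planned comparison of pseudocounts was not run, since the values are already log2. The causes were not tested.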
